A study of Mus musculus with 17 samples.

Results

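Lungs of Clic4 knockout mice were compared between day 14 and day 0 by RNA sequencing. The members were the libraries whose titles mark a knockout at 14 days (5 libraries) or a knockout control (2 libraries), 7 of the 17 in the series. The knockout groups carried the genotype Clic4 KO on the strain label FVB/6DT1, with an age label of 6 weeks in the earlier group and 8 weeks in the later one; day and age therefore cannot be told apart. The wild-type lungs, of the same strain label and ages, gave 4 libraries at day 0 and 6 at day 14 and served as the reference for a day effect outside the knockout. A mammary tumour line of the mouse is called 6DT1. What the mice received between the days is not given in the sources used here. Labels do not tie a library to an animal, so any p reflects variation among the libraries sequenced, part of which may be technical. The design text of the series states other group sizes than the labels, and the labels were followed.

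Clic4 encodes chloride intracellular channel 4, a protein that occurs in soluble and membrane-bound forms. In this tissue the extracellular matrix is laid down largely by fibroblasts, pericytes and endothelium: fibrillar collagens carry load, a basement membrane of type IV collagen and laminin lies under epithelium and endothelium, type VI collagen links it to the fibres, and elastic fibres give recoil. Alveolar type 2 cells make surfactant, for which they synthesize lipid.

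The 7 knockout libraries held 20607811 to 31510615 counts. Clic4 was lower in every knockout library than the wild-type group means. It stood at 324.4 and 327.5 CPM (counts per 1000000 counted) in the day 0 knockout libraries and at 333.3, 399.1, 301.5, 336.9 and 307.9 CPM at day 14, against group means of 943.3 ± 13.1 CPM (SD, n = 4) and 1043 ± 154 CPM (n = 6) in wild-type lungs. The knockout means were 34.6 and 32.2% of these at day 0 and day 14, so much signal remained, and whole-gene counts cannot show whether those reads fall in the deleted part. Its knockout day effect was log2 +0.04 (SE 0.12, adjusted p = 0.935). In bulk tissue, fewer cells of a type and less RNA per cell cannot be told apart. No library had counts of Ddx3y, a Y-linked gene.

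Matrix, surfactant and lipid synthesis genes had lower values at day 14 and several immune groups higher ones, but no single gene passed the test across all genes. By edgeR's quasi-likelihood test with Benjamini-Hochberg adjustment, 0 of 19557 genes had an adjusted p under 0.05 (smallest 0.0799), while 847 (4.33%) were higher and 923 (4.72%) lower at an unadjusted p under 0.05. DESeq2 on the same libraries called 53 higher (0.271%) and 32 lower (0.164%). Wild-type lungs gave 0 calls as well, and 1772 genes (9.06%; 4.72% higher and 4.34% lower) at an unadjusted p under 0.05, beside 1770 (9.05%) in the knockout. The test of a difference between those day effects gave 0 calls, and 890 genes (4.55%) at an unadjusted p under 0.05, 2.52% with the knockout effect above and 2.03% below. The day effect had the same sign in both genotypes, whose libraries are not shared, in 11694 of the 19557 genes (59.8%). The median log2 change over all genes was +0.01 in the knockout. Of all genes, 52.6% were higher and 47.3% lower in value in the knockout. These shares, with the 4.33 and 4.72% at an unadjusted p under 0.05, are the background of each list count below.

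Most basement membrane genes were lower in value at day 14. Col4a1 and Col4a2 encode the 2 chains of the widespread type IV collagen and are read away from each other from a shared start region on chromosome 8. The pair showed near-equal day effects, and the part of the shared start region in them was not tested. Their promoter windows are printed because of the near-equal effects. Each runs from 250 bases before to 50 after the annotated start, credited to RefSeq on GRCm38.p6, with capitals marking the GC box GGGCGG or CCGCCC on the strand shown. Col4a1 lies on the minus strand at chr8:11312777-11313076, and Col4a2 on the plus strand at chr8:11312555-11312854.
Col4a1: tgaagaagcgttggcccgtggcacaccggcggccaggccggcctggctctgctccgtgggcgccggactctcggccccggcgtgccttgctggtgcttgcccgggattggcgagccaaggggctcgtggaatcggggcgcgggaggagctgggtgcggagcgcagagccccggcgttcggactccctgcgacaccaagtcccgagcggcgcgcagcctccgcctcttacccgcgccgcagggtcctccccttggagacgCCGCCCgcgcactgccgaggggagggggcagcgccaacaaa
Col4a2: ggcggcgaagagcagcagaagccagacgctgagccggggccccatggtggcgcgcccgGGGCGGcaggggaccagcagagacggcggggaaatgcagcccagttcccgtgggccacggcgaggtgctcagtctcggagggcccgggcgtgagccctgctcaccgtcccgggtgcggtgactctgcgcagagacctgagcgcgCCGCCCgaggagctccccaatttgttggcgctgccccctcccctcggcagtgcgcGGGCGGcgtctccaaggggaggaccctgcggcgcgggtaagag
The annotated starts lie 21 bases apart and the windows share 78 bases. The Col4a1 window holds 1 GC box and the Col4a2 window 3. The Col4a1 box lies in the shared bases and is 1 of those 3, read on the other strand. Over all 32851 promoters of that table, 35.7% hold at least 1 on either strand.

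Col4a1 stood at 1645 and 1782 CPM at day 0 and at 1300, 1517, 1135, 1089 and 1193 CPM at day 14. Col4a2 stood at 1323 and 1459 CPM and then at 1084, 1145, 967.96, 920.6 and 973.6 CPM. Every day 14 library lay below both day 0 libraries for each gene, with library 2 the highest at day 14. The ratio of Col4a1 to Col4a2 was 1.24 and 1.22 at day 0 and 1.2, 1.32, 1.17, 1.18 and 1.23 at day 14, so the pair kept nearly the same proportion in most libraries. Their day effects were log2 -0.46 (SE 0.11, adjusted p = 0.211) and -0.45 (SE 0.0901, adjusted p = 0.158), and the same effects in wild-type lungs were -0.11 and -0.02. Lamb1, a laminin beta chain, stood at 175.6 and 204.3 CPM and then at 153.9, 166.7, 141.6, 144.3 and 137.3 CPM, again with no overlap (log2 -0.35, SE 0.0733, adjusted p = 0.16; wild type -0.04). The knockout effect was below the wild-type effect by log2 0.31 for Lamb1, with an unadjusted p of 0.00349 (interaction, adjusted p = 0.988). Of the 19 basement membrane genes tested, 18 were lower in value, 11 at an unadjusted p under 0.05, and 10 had all day 0 libraries above all day 14 libraries (4.72 and 6.2% of all genes). The list median was log2 -0.24 (wild type -0.04), and -0.15 without day 0 library 2, when 7 lay lower at an unadjusted p under 0.05.

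**Figure D1:**
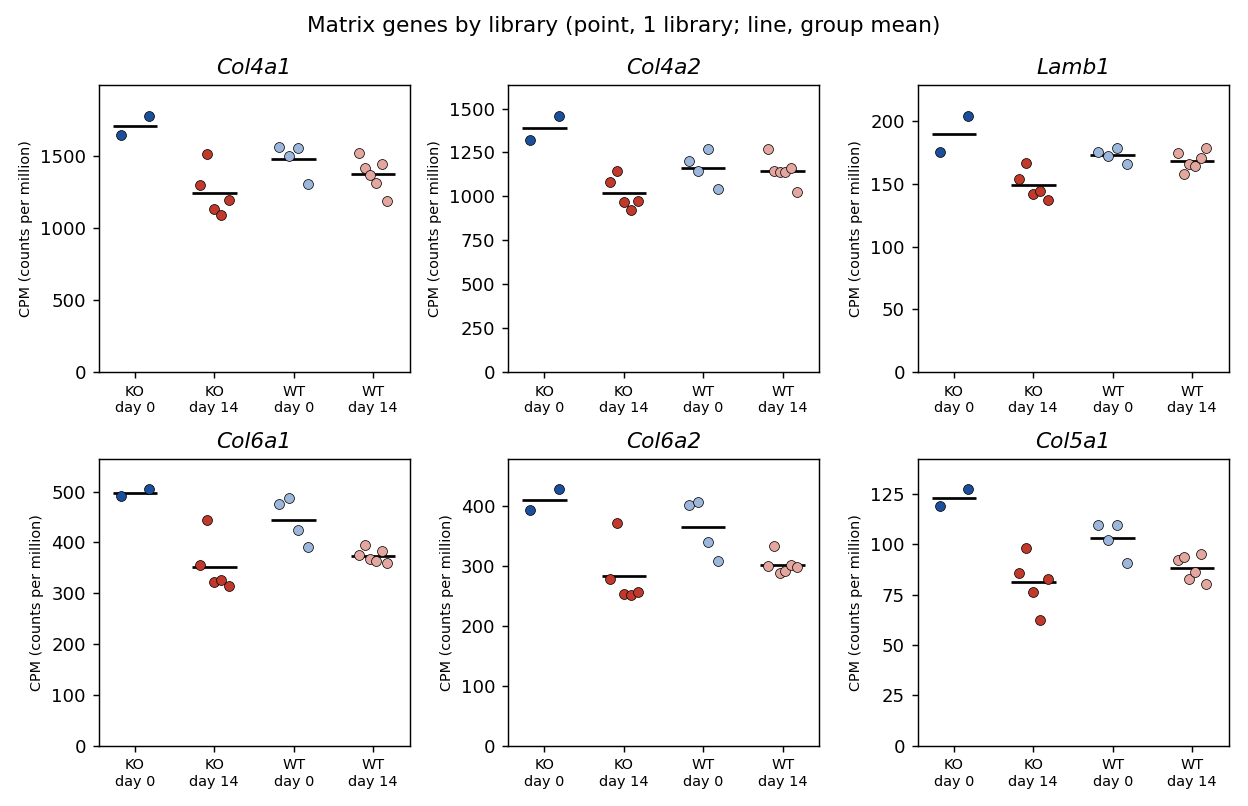
CPM of Col4a1, Col4a2, Lamb1, Col6a1, Col6a2 and Col5a1 (vertical axes, from 0) in each library of the 4 groups; points are libraries and lines group means. In the 6 panels both KO day 0 libraries sit above all KO day 14 libraries, and KO day 14 library 2 is the highest of its group.

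Collagen VI, a beaded-filament collagen, and collagen V, which starts fibres, showed the same order. Col6a1 stood at 491.6 and 504.2 CPM at day 0 and at 355.7, 444.6, 321.4, 326.1 and 313.8 CPM at day 14. Col6a2 stood at 394.4 and 428.5 CPM and then at 279.2, 373.1, 253.4, 252.6 and 257.1 CPM. In both, library 2 of day 14 came nearest the day 0 libraries, and the ratio of Col6a1 to Col6a2 ran from 1.18 to 1.29 in the 7 libraries. The log2 effects were -0.50 (SE 0.105, adjusted p = 0.177) and -0.54 (SE 0.128, adjusted p = 0.211), beside -0.25 and -0.27 in wild-type lungs. Col6a1 and Col6a2 are neighbours in tandem on chromosome 10, with starts 102640 bases apart, and do not share a window as the type IV pair do. Their windows are printed to show that difference, Col6a1 on the minus strand at chr10:76725995-76726294 and Col6a2 on the minus strand at chr10:76623355-76623654. For Col6a2 the table holds another window as well, not shown.
Col6a1: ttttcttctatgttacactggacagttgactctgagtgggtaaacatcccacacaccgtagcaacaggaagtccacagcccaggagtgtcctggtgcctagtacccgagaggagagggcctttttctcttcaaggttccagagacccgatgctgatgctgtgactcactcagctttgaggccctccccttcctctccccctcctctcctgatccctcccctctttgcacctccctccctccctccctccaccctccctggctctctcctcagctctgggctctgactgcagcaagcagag
Col6a2: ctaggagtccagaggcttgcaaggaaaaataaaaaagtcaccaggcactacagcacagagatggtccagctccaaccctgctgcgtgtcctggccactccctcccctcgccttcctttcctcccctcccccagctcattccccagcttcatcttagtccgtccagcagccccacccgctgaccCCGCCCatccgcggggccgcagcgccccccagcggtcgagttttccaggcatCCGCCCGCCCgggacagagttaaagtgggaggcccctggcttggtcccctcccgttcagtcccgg
Col6a1 held 0 GC boxes and Col6a2 3. Of the 12 collagen VI and other collagen genes, 11 were lower in value and 6 at an unadjusted p under 0.05 (4.72% of all genes). In wild-type lungs 11 were lower in value as well, 5 at an unadjusted p under 0.05 (4.34% of all genes). The list median was log2 -0.27 in the knockout and -0.21 in wild type. Col15a1, a collagen of vascular basement zones, stood at 34.16 and 36.89 CPM and then at 22.07, 31.68, 24.05, 16.5 and 18.79 CPM (log2 -0.65, SE 0.184, adjusted p = 0.286).

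Col5a1 stood at 118.9 and 127.3 CPM at day 0 and at 86.04, 98.17, 76.35, 62.55 and 82.88 CPM at day 14. All 5 day 14 libraries lay below both day 0 libraries (log2 -0.60, SE 0.118, adjusted p = 0.158; wild type -0.22). Col5a3 stood at 10.31 and 12.43 CPM and then at 7.389, 7.91, 5.825, 5.116 and 8.209 CPM, log2 -0.73 (SE 0.197, adjusted p = 0.252), while wild-type lungs stood at +0.27. For the difference between those effects the unadjusted p was 0.000952 (edgeR adjusted p = 0.846). The major fibre genes had the same sign with more overlap. Col1a1 stood at 478.5 and 477.5 CPM and then at 331, 493.4, 284.7, 242.4 and 375.8 CPM. Its day effect was log2 -0.47 (SE 0.209, adjusted p = 0.524), and -0.38 in wild-type lungs. Col3a1 showed log2 -0.51 (SE 0.271, adjusted p = 0.603), and -0.42 in wild-type lungs. Its day 14 library 2 stood at 1402 CPM, above both day 0 values of 1159 and 1258 CPM. All 6 fibrillar collagen genes were lower in value, 4 at an unadjusted p under 0.05 (4.72% of all genes). In wild-type lungs 5 were lower in value, 2 at an unadjusted p under 0.05 (4.34% of all genes).

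Across 6 lists of matrix structure (fibrillar collagens, collagen VI and others, basement membrane, elastic fibre, collagen processing, proteoglycans and matricellular proteins), 93 of 95 genes were tested. Of these, 86 were lower in value (92.5%, against 47.3% of all genes) and 7 higher. At an unadjusted p under 0.05, 34 were lower (36.6%, against 4.72% of all genes) and 0 higher, and 21 had all day 0 libraries above all day 14 libraries (22.6%, against 6.2% of all genes). Those 6 lists, which include Col6a1, Col6a2, Col5a1 and Lamb1, were chosen with earlier results of these data known. The shares are therefore not independent of that choice. Over the 93 genes the median log2 change was -0.20, and in wild-type lungs -0.07. In wild type 66 were lower in value (71.0%, against 49.6% of all genes). At an unadjusted p under 0.05, 16 were lower there, against 4.34% of all genes. For the difference of the day effects between genotypes, 77 of 93 were below zero (82.8%, against 48.9% of all genes), and 13 lay below at an unadjusted p under 0.05, against 2.03% of all genes. No gene passed that test after adjustment. The difference rests on the 2 knockout day 0 libraries. Knockout day 0 means lay above wild-type ones for Col4a2 (1391 against 1164 CPM), Lamb1 (189.9 against 172.9 CPM) and Col5a1 (123.1 against 103 CPM). Their day 14 means lay below the wild-type ones (1018 against 1146, 148.8 against 168.4 and 81.2 against 88.43 CPM). The part of the day 0 level in the difference was not tested.

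**Figure D2:**
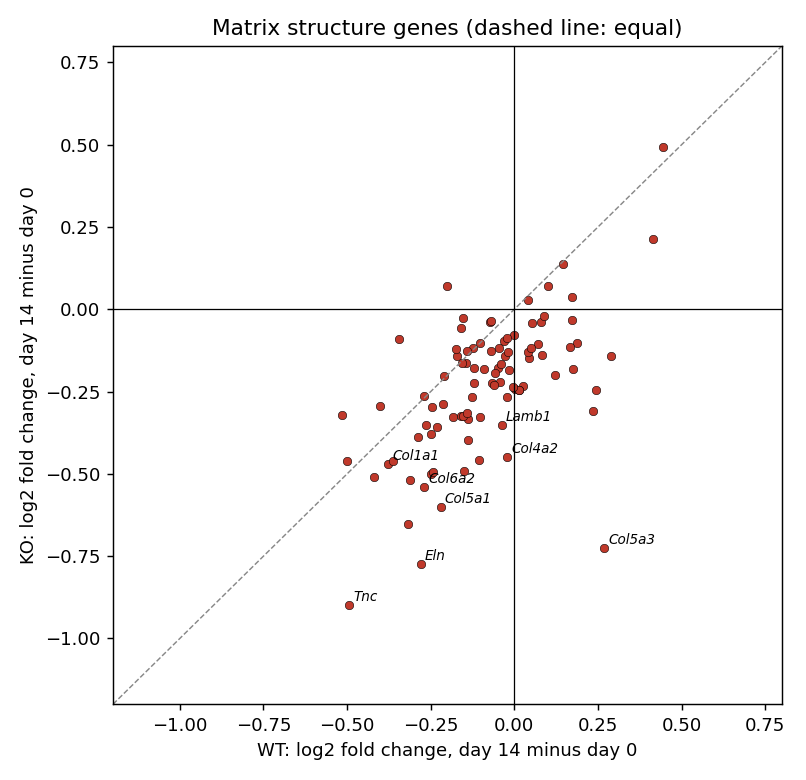
Day effect (log2 fold change, day 14 minus day 0) of 93 matrix structure genes in WT (horizontal axis) and KO (vertical axis); each point is a gene and the dashed line marks equal effects. Most points lie below the dashed line and 86 below zero in KO.

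Among elastic fibre genes, Eln (elastin) stood at 519.3 and 394.1 CPM and then at 235.6, 292.6, 220.2, 209.7 and 379 CPM (log2 -0.77, SE 0.199, adjusted p = 0.241). Fbn1 (fibrillin) stood at log2 -0.52 (SE 0.129, adjusted p = 0.211). Both had no overlap between the days, although library 5 came near the day 0 range for Eln. Of the 17 genes of that list, 15 were lower in value and 3 at an unadjusted p under 0.05, or 8 without day 14 library 2; Emilin2 was higher by log2 0.49 in value and did not pass, and was named after its value was seen. Of the 19 tested genes that modify and crosslink collagen, all were lower in value and 5 at an unadjusted p under 0.05, or 1 without day 0 library 2 and 0 with only the 7 knockout libraries; Loxl2, a crosslinking oxidase, stood at log2 -0.49 (SE 0.19, adjusted p = 0.444) and Pcolce, an enhancer of procollagen cleavage, at -0.29 (SE 0.119, adjusted p = 0.473). Tnc (tenascin C), the matricellular gene of largest change, stood at 44.43 and 53.16 CPM and then at 23.34, 39.34, 21.76, 13.51 and 33.48 CPM (log2 -0.90, SE 0.338, adjusted p = 0.437), with all day 0 libraries above. Of proteoglycan and matricellular genes, 17 of 20 were lower in value and 5 at an unadjusted p under 0.05, Sparc and Npnt among them, or 0 without day 0 library 2.

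Proteases and receptors of the matrix were mixed. Of 18 protease and inhibitor genes, 11 were lower and 7 higher in value, 3 and 2 of them at an unadjusted p under 0.05. Adamts5, an aggrecan-cleaving protease, stood at 23.01 and 22.45 CPM at day 0 and at 33.96, 32.68, 32.51, 29.9 and 30.31 CPM at day 14 (log2 +0.49, SE 0.112, adjusted p = 0.211). All of its day 14 libraries lay above both day 0 libraries. Mmp2 and Mmp14, a gelatinase and its membrane-bound activator, had the lower sign, at log2 -0.37 (SE 0.147, adjusted p = 0.455) and -0.24 (SE 0.1, adjusted p = 0.48). Of 20 matrix receptor genes, 11 were lower in value and 3 at an unadjusted p under 0.05. Dag1, the dystroglycan that binds laminin, stood at 560.8 and 608.6 CPM and then at 470.4, 550, 514, 474.9 and 431.4 CPM (log2 -0.26, SE 0.0789, adjusted p = 0.301). Markers of the cells around the matrix went both ways. The 16 fibroblast and pericyte genes summed to 4379 and 4469 CPM at day 0 and to 3997 to 4425 CPM at day 14, with 2 higher and 2 lower at an unadjusted p under 0.05 and a range of log2 -0.33 to +0.43 around a median of -0.07. Of the 10 smooth muscle genes, 8 were lower in value, 2 at an unadjusted p under 0.05 and 2 with all day 0 libraries above, with a median of log2 -0.11. The part of these cells in the matrix values was not tested. The 19 vascular endothelial genes had a median of log2 -0.04, although Cdh5 (VE-cadherin) stood at 1349 and 1374 CPM and then at 1105, 1279, 1143, 1122 and 1058 CPM (log2 -0.25, SE 0.0739, adjusted p = 0.297).

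Library 2 of day 14, which had the highest interferon scores of the knockout libraries, had matrix values near those of day 0. Without it, edgeR called 10 genes lower (0.0511% of genes) and 2 higher (0.0102%), and 9 of the 10 were matrix genes: Col4a1, Col4a2, Col5a1, Col5a2, Col6a1, Col6a2, Fbn1, Lamb1 and Npnt. Col6a1 then stood at adjusted p = 0.00997. With any other day 14 library left out, 0 matrix genes were called. Library 2 was the highest of day 14 for Col4a1, Col4a2, Col5a1, Col5a2, Col6a1, Col6a2, Lamb1 and Npnt. Leaving library 2 out therefore lowers their day 14 means by construction. The calls, median and counts without library 2 are not a separate result on the matrix genes. The median of the 93 genes was log2 -0.26 without that library and -0.16 without library 2 of day 0, when 73 were lower in value. The 34 genes lower at an unadjusted p under 0.05 became 50 without day 14 library 2, 19 without day 0 library 2 and 22 with only the 7 knockout libraries. DESeq2 on all libraries called 32 genes lower (0.164% of all genes). Of these, 7 were matrix genes, Col4a1, Col4a2, Col5a1, Col6a1, Col6a2, Eln and Lamb1.

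**Figure D3:**
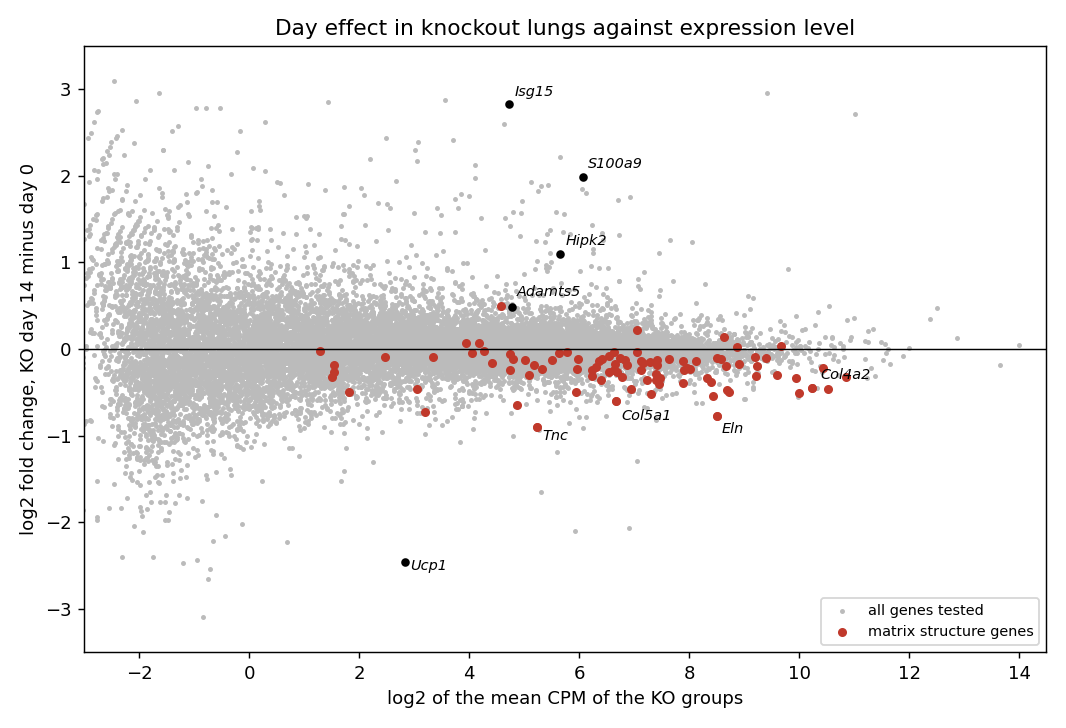
Day effect in KO (log2 fold change) against the log2 mean CPM of the KO groups (a log axis), 1 point per gene; red points are the matrix structure genes and black points other named genes. Most red points lie below zero over the whole range of levels; 128 genes lie outside the frame.

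Alveolar type 2 and surfactant genes and genes of lipid synthesis were lower in value. Abca3, the lamellar body lipid transporter, stood at 645.8 and 555.1 CPM and then at 400.9, 423.6, 483.6, 492.8 and 485.8 CPM (log2 -0.39, SE 0.1, adjusted p = 0.213). Sftpb, a surfactant protein, stood at 3259 and 2651 CPM and then at 2109, 2332, 2411, 2474 and 2537 CPM (log2 -0.32, SE 0.102, adjusted p = 0.339). In both, every day 14 library lay below both day 0 libraries. All 16 genes of the type 2 list were lower in value, 9 at an unadjusted p under 0.05, with a median of log2 -0.31 (wild type -0.08). That median was -0.14 without library 1 of day 0 and -0.41 without library 2 of day 0, so the size rested on day 0 library 1. Without that library 2 of the 16 lay lower at an unadjusted p under 0.05, without day 14 library 1 there were 4, and with only the 7 knockout libraries 5. The 12 alveolar type 1 genes had a median of log2 -0.05.

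Of 24 genes of cholesterol and fatty acid synthesis, 23 were lower in value, 10 at an unadjusted p under 0.05 (4.72% of all genes), and 10 had all day 0 libraries above (6.2% of all genes). Without day 0 library 2, 1 lay lower at an unadjusted p under 0.05. The list median was log2 -0.27 (wild type -0.10). In wild-type lungs 16 of the 24 were lower in value, 8 at an unadjusted p under 0.05 (4.34% of all genes). Dhcr7, the last enzyme of one route to cholesterol, stood at 26.04 and 25.46 CPM and then at 17.79, 19.9, 22.83, 16.25 and 18 CPM (log2 -0.44, SE 0.131, adjusted p = 0.298). Acly, which makes cytosolic acetyl-CoA, stood at log2 -0.36 (SE 0.109, adjusted p = 0.301). Fasn, fatty acid synthase, stood at 542.7 and 688.3 CPM and then at 368.8, 339.6, 563.9, 413.7 and 378.4 CPM, with library 3 inside the day 0 range (log2 -0.58, SE 0.19, adjusted p = 0.374), while wild-type lungs stood at +0.16.

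**Figure D4:**
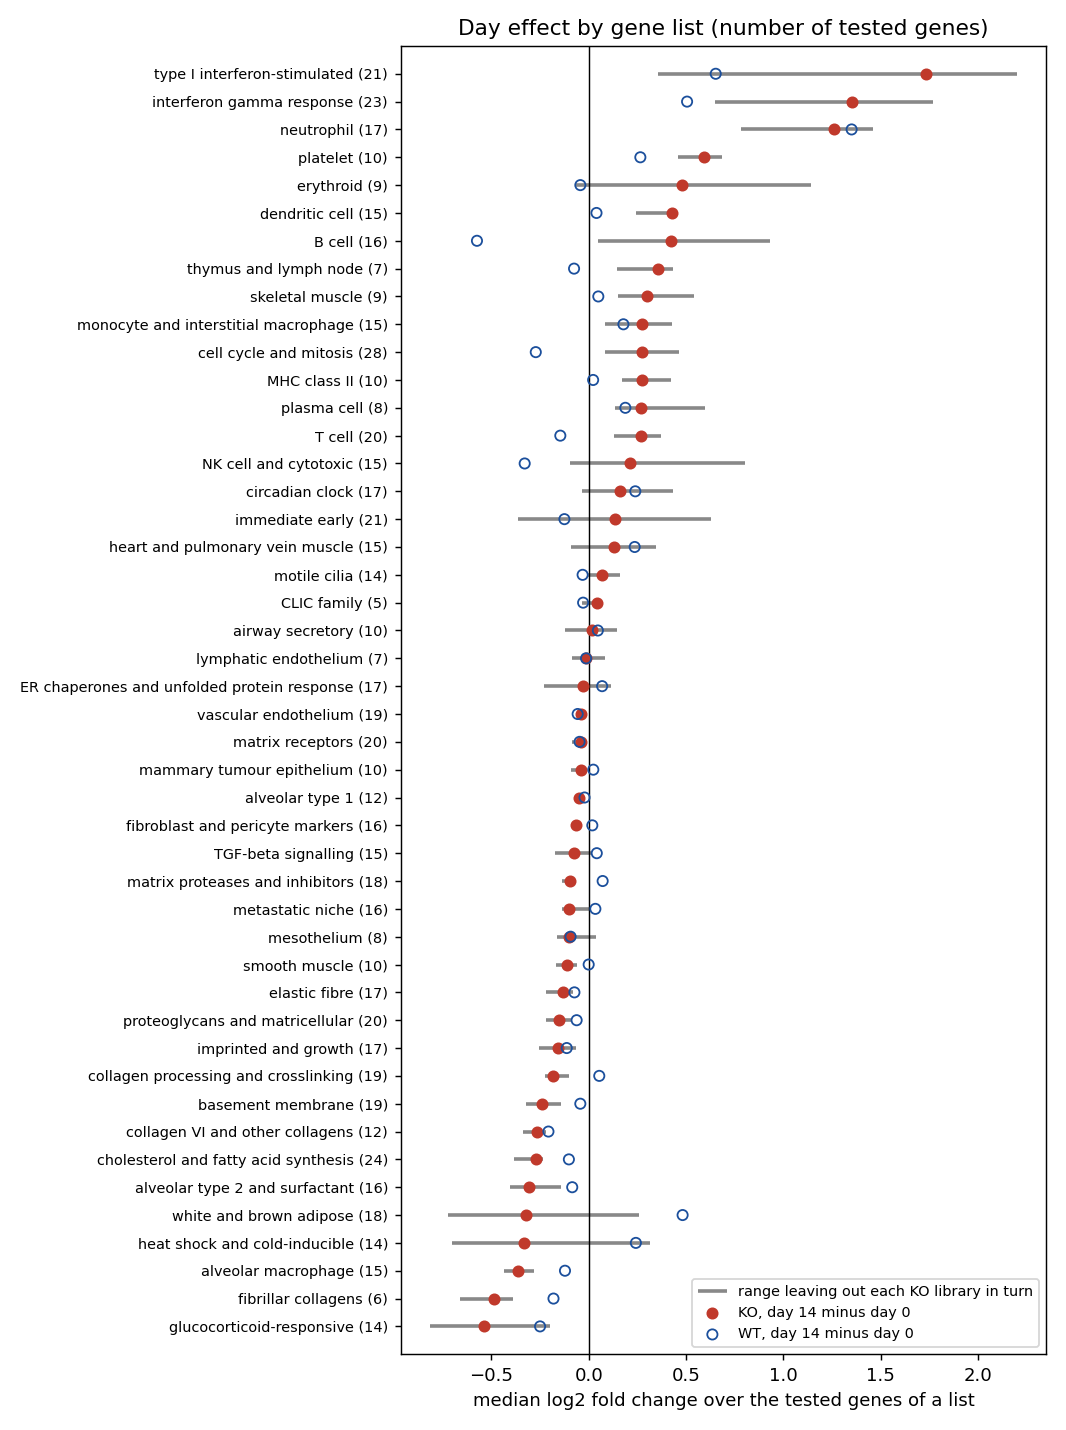
Median log2 day effect (horizontal axis) of each gene list, with the number of tested genes in brackets, for KO (filled) and WT (open); grey bars span the KO medians when each KO library was left out in turn. The type I interferon list lies highest and moves most, to 0.358 without day 14 library 2.

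The genes of smallest p with day 14 above were Rsc1a1, Hipk2, Elk4, Tmod2, Zfc3h1, Tet2, Mdm4, Epg5, Zbtb37 and Pim1, of which none passed. Hipk2, a nuclear kinase that acts on p53, stood at 27.6 and 36.29 CPM at day 0 and at 52.01, 58.74, 79.26, 72.85 and 78.63 CPM at day 14, a 2.14-fold difference (log2 +1.10, SE 0.191, adjusted p = 0.158). Wild-type lungs held 44.04 ± 7.51 CPM (n = 4) and 35.79 ± 4.37 CPM (n = 6). Its day effect stood above the wild-type effect by log2 1.40 (unadjusted p = 1.86e-05, adjusted p = 0.121). Elk4, a transcription factor of the serum response, stood at 78.03 and 88 CPM and then at 105.1 to 113.3 CPM (log2 +0.39, SE 0.0736, adjusted p = 0.158; wild type +0.01). Tet2, which oxidizes methylcytosine, stood at log2 +0.50 (SE 0.103) and Mdm4, a p53 regulator, at +0.31 (SE 0.0642), each at adjusted p = 0.158. Zfc3h1, a partner of the nuclear RNA exosome, stood at 51.84 and 55.43 CPM and then at 73.29, 71.32, 75.72, 82.87 and 71.46 CPM (log2 +0.48, SE 0.0983, adjusted p = 0.158; wild type +0.06). Pim1, a serine and threonine kinase, stood at log2 +0.44 (SE 0.1, adjusted p = 0.211). Those 10 genes had no overlap between the days, by the rule that named them.

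Rsc1a1 had 0 counts in both knockout day 0 libraries and 6.66, 7.119, 5.887, 3.495 and 7.615 CPM at day 14, at least 113-fold higher against a floor of 3 counts over the day 0 group. It had 9.22 ± 1.86 CPM (n = 4) in wild-type lungs at day 0 and 5.58 ± 2.83 CPM (n = 6) at day 14, and its wild-type libraries ran from 7.2 to 11.7 CPM at day 0 and from 1.46 to 9.32 CPM at day 14. Wild-type library 2 of day 14 was the lowest of these, and the 2 day 0 knockout libraries were the only ones of the 17 with no count. Rsc1a1 (chromosome 4, 141683851 to 141685599, minus strand) lies inside the span of Ddi2 on the same strand, which stood at 162.4 ± 10.5 CPM at day 0 and 160.3 ± 15.2 CPM at day 14 in the knockout, so the share of reads given to each gene is uncertain. Among the genes of smallest p with day 0 above were Col5a1, Kcnk1, Col4a2, Lamb1, Col6a1, Rbpjl, Bmper, Cdh1 and Pcdhga8, of which 4 are matrix genes. Kcnk1, a potassium channel, stood at 15.1 and 16.79 CPM and then at 10.75, 10.74, 9.176, 11.82 and 11.27 CPM (log2 -0.57, SE 0.113, adjusted p = 0.158). Bmper, a secreted regulator of bone morphogenetic proteins, stood at log2 -0.47 (SE 0.104, adjusted p = 0.211). Cdh1, E-cadherin of epithelium, stood at log2 -0.24 (SE 0.0547, adjusted p = 0.211).

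Antigen-presenting cell genes were higher in value at day 14. Of the 10 MHC class II genes all were higher, 5 at an unadjusted p under 0.05 (4.33% of all genes). Their median was log2 +0.27 (wild type +0.02). Without day 0 library 2 the median was +0.17 with 1 gene at an unadjusted p under 0.05, and without day 0 library 1 it was +0.42 with 9. Ciita, their master regulator, stood at 32.57 and 28.33 CPM and then at 51.85, 64.28, 40.93, 41.25 and 36.4 CPM (log2 +0.62, SE 0.181, adjusted p = 0.297). H2-Ab1, a class II beta chain, stood at 339.7 and 304.9 CPM and then at 347.1 to 512.2 CPM (log2 +0.35, SE 0.124, adjusted p = 0.393). All 15 dendritic cell genes were higher in value, 3 at an unadjusted p under 0.05 (median log2 +0.43, and +0.24 with 1 gene without day 14 library 3), Irf8, a factor that dendritic cells need (log2 +0.54, SE 0.161, adjusted p = 0.301), among them. For Ciita, H2-Ab1 and Irf8 all day 14 libraries lay above both day 0 libraries, as in 5.6% of all genes. The monocyte and interstitial macrophage list had 12 of 15 genes higher in value (median log2 +0.27, and +0.08 without day 0 library 2) and 1 at an unadjusted p under 0.05, namely Ccr2, a monocyte chemokine receptor, at 25.62 and 19.58 CPM and then at 41.67, 40.93, 53.14, 41.29 and 28.48 CPM (log2 +0.86, SE 0.304, adjusted p = 0.402).

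Neutrophil genes were variable between day 14 libraries. S100a9, a calcium-binding protein of neutrophils, stood at 33.21 and 20.81 CPM and then at 122.9, 17.49, 80.48, 63.16 and 251.8 CPM (log2 +1.98, SE 0.902, adjusted p = 0.541), and the wild-type effect was also +1.98. Cxcr2, a neutrophil chemokine receptor, stood at 5.823 and 6.552 CPM and then at 27.08, 4.455, 16.75, 12.79 and 42.33 CPM. Library 2 lay below both day 0 values for each gene and the other 4 above. In wild-type lungs 16 of the 17 neutrophil genes tested were higher in value, 11 at an unadjusted p under 0.05 (4.72% of all genes). In the knockout 15 of 17 were higher in value, 4 at an unadjusted p under 0.05 (4.33% of all genes). The knockout median was log2 +1.26 (wild type +1.35), and +0.78 without library 5 of day 14. None lay higher at an unadjusted p under 0.05 when either day 0 library was left out or with only the 7 knockout libraries, and 1 did without day 14 library 5. Platelet genes were higher in value in 10 of 10, 3 at an unadjusted p under 0.05 (4.33% of all genes). That count was 1 when day 14 library 5 was left out, and 7 without day 14 library 2. In wild-type lungs all 10 were higher in value as well, 0 at an unadjusted p under 0.05. The platelet median was log2 +0.59 in the knockout (wild type +0.27). In the knockout Pf4, a platelet chemokine, stood at 7.552 and 6.961 CPM and then at 11.54, 10.12, 9.802, 7.746 and 15.73 CPM, without overlap.

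Type I interferon genes were high in a single day 14 library, while some interferon gamma response genes were higher in value in every day 14 library. Isg15, a ubiquitin-like interferon product, stood at 8.611 and 4.355 CPM and then at 8.182, 196.6, 9.364, 8.359 and 8.95 CPM (log2 +2.83, SE 1.8, adjusted p = 0.665). Library 2 alone was far from the rest. Ifit3, another interferon product, stood at 54.52 and 55.99 CPM and then at 80.71, 625.8, 86.65, 88.56 and 52.12 CPM. The type I interferon score read 2.56 in that library and -0.61 to -0.48 in the other 4 of day 14; among wild-type libraries day 14 library 5 read 2.58. Of 21 type I interferon-stimulated genes all were higher in value, 0 at an unadjusted p under 0.05. The median was log2 +1.73, and +0.36 without library 2 of day 14. In wild-type lungs all 21 were higher in value as well, with a median of log2 +0.65. All 23 interferon gamma response genes were higher in value in both genotypes. The wild-type median was log2 +0.505, with 3 at an unadjusted p under 0.05 (4.72% of all genes). In the knockout 5 lay at an unadjusted p under 0.05 (4.33% of all genes). Of the 23, 10 had all knockout day 14 libraries above (5.6% of all genes). The knockout median was +1.35, or +0.65 without day 14 library 2. The count at an unadjusted p under 0.05 was 0 without that library, 0 without day 0 library 2 and 1 with only the 7 knockout libraries. Gbp4, a guanylate-binding protein, stood at 58.55 and 43.4 CPM and then at 121.1, 267.1, 81.77, 75.91 and 64.63 CPM (log2 +1.26, SE 0.53, adjusted p = 0.497), with every day 14 library above both day 0 libraries.

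**Figure D5:**
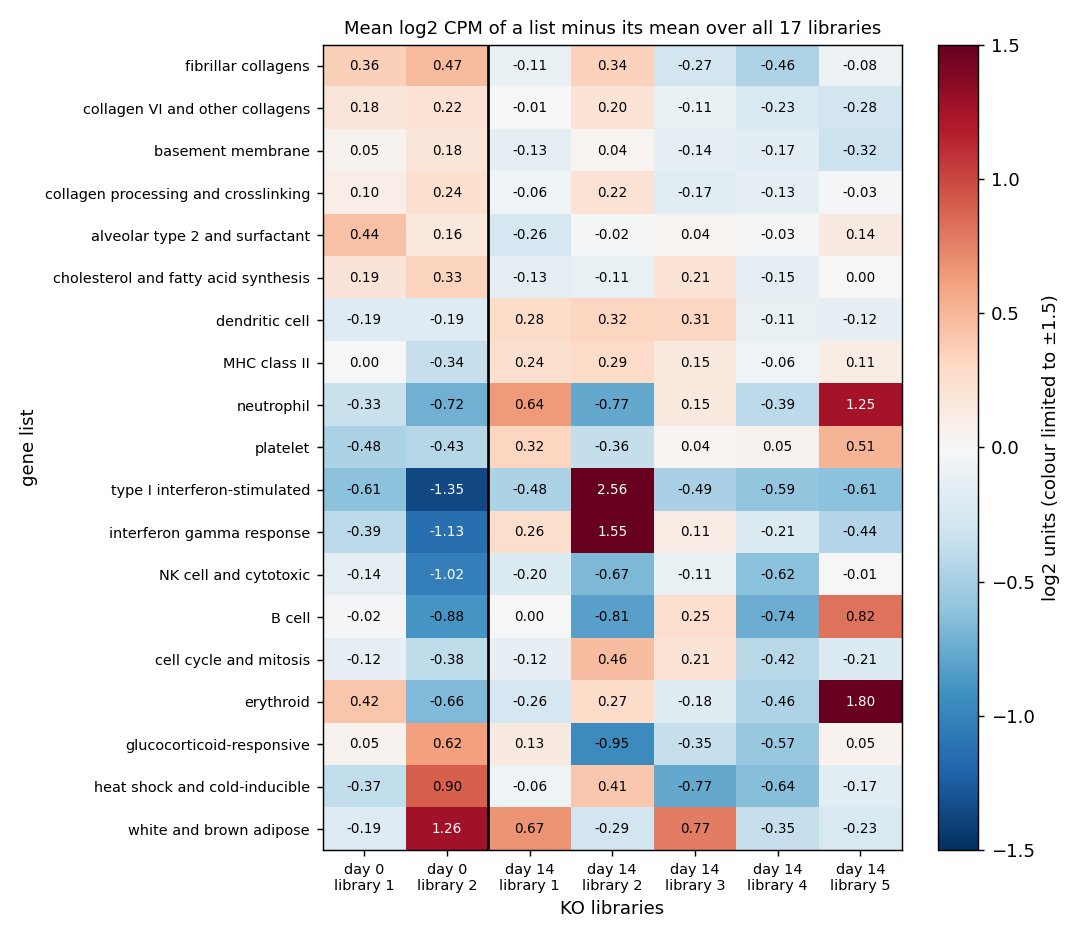
Mean log2 CPM of each list, less its mean over all 17 libraries (log2 units, colour limited at 1.5), for the 7 KO libraries (columns). Type I interferon reads 2.56 in day 14 library 2, and adipose reads 1.26 in day 0 library 2.

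Other lists moved with single libraries. Day 0 library 2 carried the highest adipose, heat shock and glucocorticoid scores, with Ucp1, a brown fat uncoupling protein, at 24.16 CPM against 0.1059 CPM in day 0 library 1. The adipose median was log2 -0.32, and +0.26 without that library, and the heat shock median was -0.33, and +0.32 without it. All 14 glucocorticoid-responsive genes were lower in value at day 14, 2 at an unadjusted p under 0.05, with a median of -0.54, or -0.20 without that library. Tsc22d3, a glucocorticoid-induced regulator, stood at 479.7 and 765 CPM and then at 466.6, 249.9, 439.2, 410.1 and 522.8 CPM, with overlap. B cell genes had a median of log2 +0.42 (wild type -0.57), but +0.05 without day 0 library 2, and NK and cytotoxic genes +0.21, but -0.10 without it. Erythroid genes had a median of +0.48, and -0.07 without day 14 library 5, in which the 10 largest genes took 9.26% of counts. That median also moved with the day 0 libraries, to +0.03 without library 2 and +1.14 without library 1. All 15 alveolar macrophage genes were lower in value, 0 at an unadjusted p under 0.05, with a median of log2 -0.36 that ran from -0.44 to -0.28 over leaving out each knockout library in turn. Siglecf, a receptor of alveolar macrophages, stood at 10.13 and 9.79 CPM and then at 6.025, 3.83, 8.424, 6.918 and 7.566 CPM (log2 -0.60, SE 0.31, adjusted p = 0.583), with day 0 above. T cell genes were higher in value in 19 of 20 (52.6% of all genes), 0 at an unadjusted p under 0.05. Their median was log2 +0.27 (wild type -0.15), and +0.13 without day 0 library 2. Cell cycle genes were higher in value in 27 of 28, 0 at an unadjusted p under 0.05. Their median was +0.27 (wild type -0.27), and +0.08 without day 14 library 2. Genes of a list can move together with 1 library, so such a count is not a number of independent results. The 10 mammary tumour epithelium genes tested, of 14 listed, summed to 882.9 and 892.4 CPM at day 0 and to 743.8 to 838 CPM at day 14. Of the 10, 4 were higher and 6 lower in value, with a median of log2 -0.04. Their scores overlapped between the days, at -0.11 and 0.12 at day 0 and -0.21 to 0.26 at day 14. The part of these libraries in the group medians was not tested beyond leaving each out.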

How the data were processed

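RNA sequencing libraries of mouse lung were compared between day 14 and day 0 within Clic4 knockout mice, with wild-type libraries in the same model. The authors deposited 1 column of expected counts per library over 54146 genes, made with the tools named below per the submitters' processing notes; the file headers do not state the unit, which was inferred from the values. The authors' joint table holds FPKM. Per the submitters' processing notes STAR 2.5.3, RSEM 1.3.0, limma 3.38.3 and build mm10 were used; the annotation release is not given in the sources used here. Expected counts were rounded to whole numbers. Genes were filtered with filterByExpr by group (19557 left) and scaled by TMM (0.977 to 1.01). One edgeR 4.0.16 model over 4 groups was fitted in R 4.3.3 (quasi-likelihood F test, two-sided, Benjamini-Hochberg over all genes, called under 0.05). DESeq2 1.42.0, limma 3.58.1 and FPKM on the log2 scale (pseudocounts 1 and 0.1) were alternatives. The code was tested on simulated data. Named genes were those called, or else the 10 each way of smallest p without overlap between the days and a mean of at least 1 CPM, plus Col6a1, Col6a2, Col5a1, Lamb1 and Clic4 and up to 3 members of a list; other genes named were chosen after their values were seen. Members and lists were chosen with earlier results of these data known. List scores are mean log2 CPM (prior count 2) less the mean over libraries. Gene positions are from GENCODE M21, in which 54079 gene IDs matched without version. A gene that the naming rule picks is not reported here.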

Additional observations from a re-analysis of the deposited data

Results flagged for a closer look

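For 58 genes named in the text and 49 list scores, the 5 knockout day 14 libraries were examined for 1 library far from the others, measured on log2 CPM (prior count 2) as its gap to the nearest library over the range of the group. The limit for 5 libraries is 0.71, and chance passes it in about 1 in 20 groups. Of the 107 values examined, 12 passed, and 8 of these set apart library 2. In that library the ratio was 0.777 for Pcdhga8, 0.744 for Col6a2, 0.735 for Col5a2, 0.747 for Sparc and 0.724 for Npnt, each the highest value of its group. The same library was highest for Isg15 (0.958), Ifit3 (0.787) and the type I interferon score (0.959). Library 1 was lowest for Tmod2 (0.788) and highest for the motile cilia score (0.778). Library 5 was highest for the skeletal muscle score (0.732) and the thymus and lymph node score (0.711).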

How the results depend on the processing

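The number of day 0 libraries, 2, limits the precision of each knockout value. No paired analysis was possible because the labels give no shared replicate numbers. edgeR called 0 knockout genes each way. With only the 7 knockout libraries it called 1 higher and 1 lower; DESeq2 called 53 and 32, log2(FPKM + 1) and log2(FPKM + 0.1) 3 and 1 each, and log2(FPKM + 1) without a filter 3 and 16. Leaving out each library gave 0 to 2 higher and 0 to 10 lower, the upper ends without day 14 library 2. Wild-type calls were 110 by DESeq2, 1 by limma-voom, 3 with RLE, 5 without a filter and 0 to 22 leaving out each library (22 without wild-type day 14 library 5). The difference between genotypes had 9 by DESeq2, 1 with at least 1 CPM in 5 libraries, 4, 3 and 7 by the FPKM fits in the order above, and 0 to 1 leaving out each library. The count at an unadjusted p under 0.05, added after results were seen, was 2785 by log2(FPKM + 1) without a filter against 1770. Of the 58 genes named, 56 kept their direction in all settings that gave a value and 26 were called in at least 1. Leaving out each library in turn moved Clic4 from log2 -0.0344 (without day 14 library 2) to 0.0771 and Ucp1 from -3.47 to 4.32 (without day 0 library 2); the cause was not tested.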
